A study of Mus musculus with 12 samples.

Results

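The genes described here are 46 of the 23184 genes in an RNA-seq table of HL-1 cells, a mouse cell line that its label calls a cardiac muscle cell line. They comprise 10 factors and effectors of the integrated stress response, 9 enzymes of amino acid synthesis, 7 amino acid transporters and 20 genes for cytosolic aminoacyl-tRNA synthetases. The members were chosen by gene symbol and known function, with the levels and the changes of this table already in view. Their differences between groups are therefore given as a description, and no count of members is offered as evidence that the group as a whole moved.

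Expression was measured in 3 groups of 4 libraries each. Control cells (CON, genotype WT) had been infected with viruses packaging the empty vectors lentiCRISPRv2 and pCDH. Knockdown cells (KD, genotype WDR62-) had been infected with a virus carrying a CRISPR/Cas9 guide RNA against Wdr62, a gene for a WD40-repeat scaffold protein of the spindle pole and of the JNK pathway; for these cells the labels state no pCDH vector. Re-expression cells (RE, genotype WDR62+) were KD cells that had also received pCDH virus encoding WDR62-WT-flag, the wild-type protein with a flag tag. All groups were grown in the same serum-containing medium, no stressor was added to any of them, and the labels do not say whether the lines were clones or pools. The control columns of the table carry the name WT, and CON 1 to CON 4 below follow their numbers.

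Cells short of amino acids, or with unfolded protein in the endoplasmic reticulum, phosphorylate the translation factor eIF2 alpha, which slows most protein synthesis but raises translation of the mRNA for the transcription factor ATF4. ATF4 pairs with C/EBP-family proteins at composite promoter elements and raises transcription of genes for making and importing amino acids and for charging them onto tRNA. It also induces further factors such as CHOP (Ddit3), ATF3 and TRIB3. ATF4 is thus set largely by translation, and its mRNA level is only a partial measure of it.

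Promoters were searched for the core of such a composite element. The members include genes known as ATF4 targets, so the share of them that holds it is not independent of how they were chosen. The window ran from 250 bases before to 50 bases after the RefSeq start on GRCm38.p6 (the mm10 assembly), and 35 of the 46 members had an entry; Cth, Slc7a5, Slc7a3, Slc1a5, Cars, Hars, Lars, Nars, Rars, Vars and Wars had none. The letters TGATGNAA, read on both strands, occurred in 13 of the 35 members (37.1%) and in 1219 of the 27025 genes with a promoter entry (4.51%). With the narrower letters TGATGCAA, a subset of the first motif, the counts were 10 members (28.6%) and 279 genes (1.03%). The matches fell in 4 of 10 stress factors, 2 of 8 synthesis enzymes, 2 of 4 transporters and 5 of 13 synthetases. Among the 11 members with a promoter that were lower in KD than in CON by the test described below, 6 held the motif, against 7 of the other 24. The other 24 include Cbs, which was not tested. Of the 7, Chac1, Slc1a4, Aars, Gars and Tars were called lower in KD once the library CON 4 was left out, and Iars and Pycr1 were not. Members without the motif changed call there as well, so the split depends on CON 4 and is a description only. A match describes the letters only; occupancy by ATF4 was not measured.

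The promoters of 5 members that were lower in KD and held the motif are shown 5′ to 3′ on the coding strand, with the matched letters in capitals. Slc7a11 (minus strand, chr3:50443564-50443863) held a match on each strand, centred at -62 and -43 from the start. The match of Atf3 (minus strand, chr1:191183284-191183583) was centred at -106 and read on the reverse strand. Trib3 (minus strand, chr2:152344011-152344310) had its match just after the start, at 18, also on the reverse strand. That of Asns (minus strand, chr6:7693160-7693459) lay at -19, and that of Yars (plus strand, chr4:129189653-129189952) at 7.
Slc7a11: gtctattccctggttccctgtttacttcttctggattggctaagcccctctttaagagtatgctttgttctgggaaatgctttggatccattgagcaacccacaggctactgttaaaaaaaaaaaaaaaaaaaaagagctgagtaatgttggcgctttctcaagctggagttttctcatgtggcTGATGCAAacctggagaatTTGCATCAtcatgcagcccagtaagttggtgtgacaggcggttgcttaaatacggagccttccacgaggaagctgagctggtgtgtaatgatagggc
Atf3: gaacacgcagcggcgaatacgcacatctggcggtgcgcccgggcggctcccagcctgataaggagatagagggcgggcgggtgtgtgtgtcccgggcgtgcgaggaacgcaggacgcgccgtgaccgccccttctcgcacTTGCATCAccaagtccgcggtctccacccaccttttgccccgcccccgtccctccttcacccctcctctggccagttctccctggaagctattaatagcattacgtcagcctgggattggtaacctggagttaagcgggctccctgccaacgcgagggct
Trib3: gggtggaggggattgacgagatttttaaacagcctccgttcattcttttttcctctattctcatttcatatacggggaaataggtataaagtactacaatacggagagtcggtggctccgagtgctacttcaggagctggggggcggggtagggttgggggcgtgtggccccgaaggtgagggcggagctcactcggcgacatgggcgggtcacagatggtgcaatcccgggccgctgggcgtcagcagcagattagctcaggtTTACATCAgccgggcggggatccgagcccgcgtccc
Asns: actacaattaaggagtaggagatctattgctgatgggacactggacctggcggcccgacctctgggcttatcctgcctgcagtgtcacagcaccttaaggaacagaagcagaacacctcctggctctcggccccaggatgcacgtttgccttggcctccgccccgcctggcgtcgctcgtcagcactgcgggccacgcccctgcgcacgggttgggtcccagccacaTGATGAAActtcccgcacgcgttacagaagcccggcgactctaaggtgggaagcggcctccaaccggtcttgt
Yars: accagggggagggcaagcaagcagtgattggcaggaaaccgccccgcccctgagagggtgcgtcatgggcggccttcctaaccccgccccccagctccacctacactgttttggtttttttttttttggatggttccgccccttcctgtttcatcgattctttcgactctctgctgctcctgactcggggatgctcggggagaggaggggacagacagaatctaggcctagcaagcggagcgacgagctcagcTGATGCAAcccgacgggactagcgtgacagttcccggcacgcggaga

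Levels are in TPM (transcripts per 1000000 transcripts), which correct for transcript length and sum to 1000000 in every library, so that sequencing depth is unknown. Genes above 0 numbered 14060 to 14733 per library. Wdr62 itself was listed at 7.45, 6.61, 6.5 and 3.38 TPM in CON, at 1.4, 0.944, 1.37 and 0.881 TPM in KD and at 1.47, 0.772, 0.826 and 1.99 TPM in RE. It was lower in KD than in CON (log2 fold change -1.67 ± 0.25 (SE), adjusted p = 0.000921) and differed from KD by 0.05 in RE (adjusted p = 0.895), so the Wdr62 row goes against the label of the RE libraries as re-expressing cells. The sources used here do not say whether transgene reads would be counted in that row. RE below stands for the libraries labelled RE, and no direction is drawn from the presence of WDR62 in them. Defining atrial genes were absent or nearly so: Myl7, Sln and Actc1 were listed at 0 in all 12 libraries and Nppa, Myh6 and Ryr2 did not exceed 0.443 TPM in any, while Tnnt2 averaged 20.7 TPM, Gata4 8.69 TPM, Nkx2-5 5.31 TPM and Myl4 2.23 TPM in CON. Nkx2-5, a cardiac transcription factor, was higher in KD (log2 fold change 1.10, adjusted p = 0.0229) and in RE (1.63, adjusted p = 0.00309) than in CON, without overlap, and its part in the results below was not tested. The 12 atrial genes summed to 28.5 to 46.4 TPM in CON, 37.2 to 46.5 TPM in KD and 39.8 to 65.5 TPM in RE, most of it Tnnt2, Gata4 and Nkx2-5. Most defining markers of the labelled cell type were missing.

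Before the members are compared, CON 4, RE 1 and RE 3 have to be set apart. Over 2268 genes whose longest transcript reached 5194 bases, log2 levels deviated from each gene's own mean by a median of 0.70, 0.68 and 0.46 in CON 1 to CON 3 but -0.82 in CON 4. The same quantity came to 0.56, 0.54, -0.21 and 0.06 in KD 1 to KD 4, and -0.72, -0.11, -0.99 and -0.13 in RE 1 to RE 4. Of the members, 5 have transcripts that long, and CON 4 was the lowest CON library in 41 of the 45 tested members. How often CON 4 was the lowest over all tested genes was not counted. The part of the long-transcript difference between libraries in the members' changes was not tested. Markers of other cell types also moved with the groups. The summed level of 6 fibroblast genes ranged from 603 to 866 TPM in CON, 699 to 846 TPM in KD and 359 to 517 TPM in RE, with Lum at 0 throughout. In KD against CON, Col1a1 (-0.75) and Dcn (-2.65) were lower, whereas Col1a2 (0.19) and Pdgfra (0.70) were not called; in RE against CON, Col1a1 (-1.80), Col1a2 (-0.66) and Dcn (-3.18) were lower. For 6 skeletal muscle genes the sums were 21.3 to 41 TPM in CON, 8.13 to 10.4 TPM in KD and 7.35 to 15.2 TPM in RE; Myod1, Myf5, Acta1 and Chrna1, the 4 that were tested, were lower in KD. Myod1 and Acta1 were high enough to be tested only through CON, where they averaged 6.35 and 3.33 TPM. Sums of the 4 macrophage genes came to 4.35 to 7.28 TPM in CON, 7.32 to 9.37 TPM in KD and 6.38 to 13.6 TPM in RE, nearly all of it Cd68. Adgre1 was at 0 in every library and Ptprc at 0 in every library but RE 4 (0.0434 TPM). The 4 endothelial genes summed to at most 0.746 TPM in any library. The part of these marker differences in the results below was not tested.

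**Figure D1:**
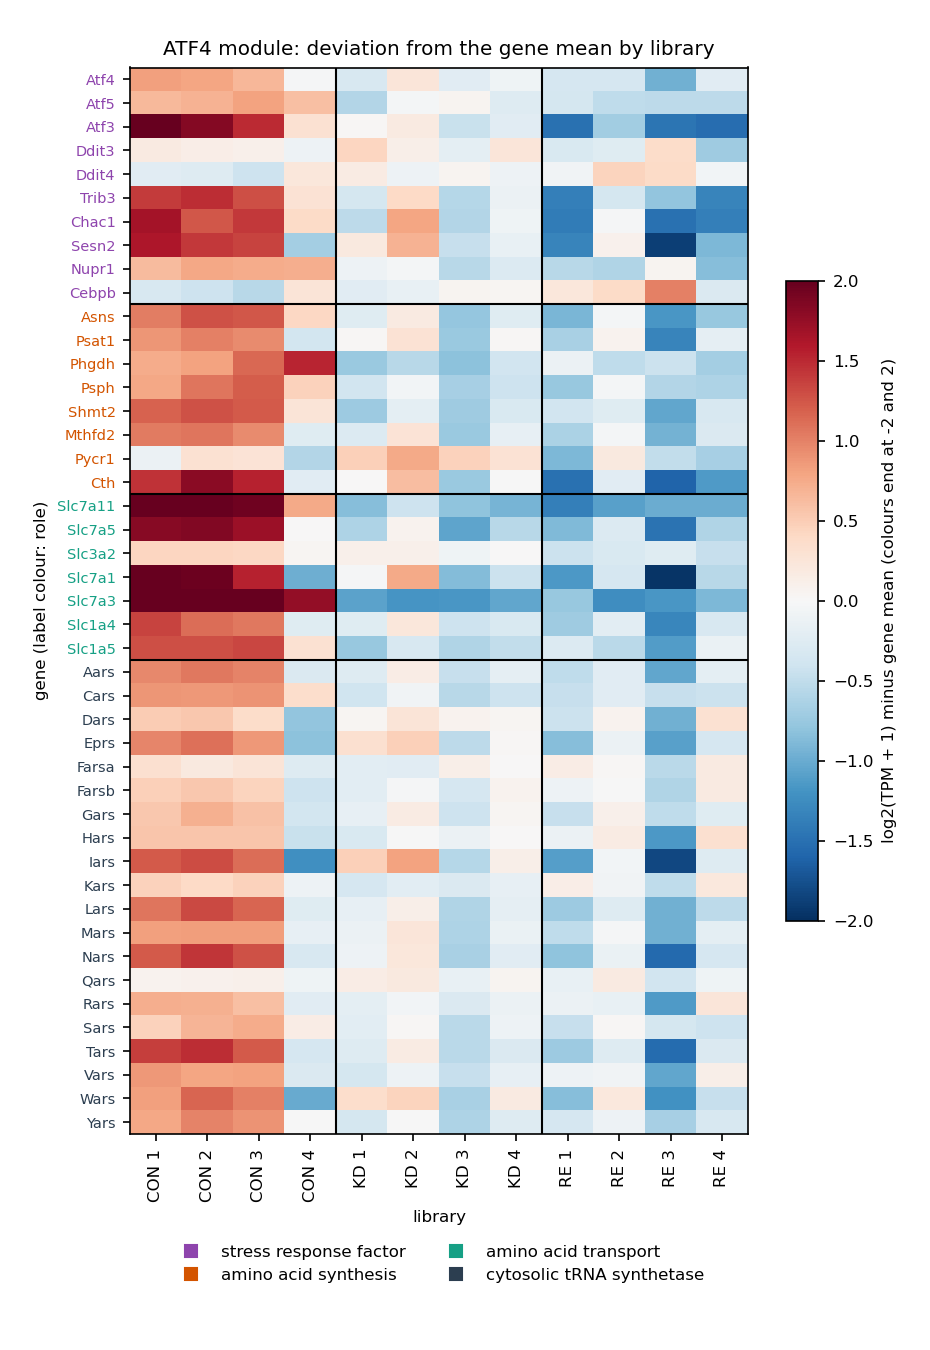
Heat map of the 45 tested members (rows, label colour by role) over the 12 libraries (columns); colour is the deviation of log2(TPM + 1) from the gene's mean over all libraries, with the scale ending at -2 and 2. CON 1 to CON 3 are high in most rows, CON 4 lies nearer to the KD and RE libraries, and RE 3 is the lowest RE library in 31 members.

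Each comparison was tested gene by gene with limma over all 11774 genes with a mean of at least 1 TPM, on the log2(TPM + 1) scale, and a gene counts as higher or lower where its adjusted p is below 0.05. In KD against CON, 15 of the 45 tested members were lower and 0 were higher, beside 3.61% of all tested genes called lower and 6.60% called higher. In RE against CON, 27 members were lower and 0 higher, beside 3.63% and 2.70% of all genes. In RE against KD, 0 members were called in either direction, beside 0.858% of genes lower and 0.187% higher. The median log2 fold change of the members was -0.87 for KD against CON (all tested genes -0.01), -1.16 for RE against CON (all genes -0.27) and -0.27 for RE against KD (all genes -0.29). These 3 comparisons share libraries pairwise and are not independent of each other. RNA was taken from whole cultures, in which fewer cells expressing a gene and less RNA per cell cannot be told apart.

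Among the stress response factors, 4 of 10 were lower in KD than in CON (Atf5, Atf3, Trib3 and Nupr1), and 7 of 10 were lower in RE than in CON. Over all tested genes, 3.61% and 3.63% were called lower in these comparisons. Atf4, which encodes the module's central transcription factor, was listed in CON at 1633, 1599, 1476 and 911 TPM. In KD it was listed at 743, 1093, 797 and 878 TPM, and in RE at 735, 738, 477 and 792 TPM. Only KD 2 among the 8 KD and RE libraries exceeded CON 4, the lowest control, while CON 1 to CON 3 lay above all 8. For KD against CON its log2 fold change of -0.66 ± 0.22 (SE) missed the threshold (adjusted p = 0.0816), whereas for RE against CON it was -1.02 ± 0.22 (adjusted p = 0.014). Without CON 4 the KD difference became -0.85 (adjusted p = 0.0077). The call for RE against CON was lost when CON 1, CON 2 or CON 3 was left out (adjusted p up to 0.0558) and with only the compared groups fitted.

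Atf5, a bZIP factor close to ATF4 and likewise regulated at translation, stood at 285, 296, 318 and 276 TPM in CON, at 121, 178, 190 and 153 TPM in KD and at 143, 128, 126 and 126 TPM in RE. Its control libraries were close to each other, CON 4 included, and lay above every KD and RE library. It was lower in KD (log2 fold change -0.89 ± 0.14, adjusted p = 0.00168) and in RE (-1.16 ± 0.14, adjusted p = 0.00029). Nupr1, a small stress-induced chromatin protein, was the other factor with even controls, at 1079, 1185, 1154 and 1151 TPM. Its KD libraries held 647, 674, 470 and 575 TPM and its RE libraries 473, 458, 722 and 384 TPM, again without overlap with CON. The log2 fold changes of Nupr1 were -0.96 ± 0.18 in KD (adjusted p = 0.00474) and -1.20 ± 0.18 in RE (adjusted p = 0.00138). The RE call of Nupr1 was lost under median-of-ratios scaling.

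Atf3, a stress-induced bZIP repressor, had 41.8, 37, 29 and 12.1 TPM in CON, 9.8, 11.1, 6.82 and 8.14 TPM in KD and 2.8, 5.59, 2.85 and 2.7 TPM in RE. The 3 groups did not overlap, although CON 4 was only just above KD 2. Atf3 was lower by -1.52 ± 0.35 on the log2 scale in KD (adjusted p = 0.0148; up to 0.0526 without CON 1 or CON 2) and by -2.70 ± 0.35 in RE (adjusted p = 0.000436). Trib3, a pseudokinase induced by ATF4 together with CHOP, was listed at 256, 271, 238 and 118 TPM in CON, at 75.6, 127, 64.3 and 89.2 TPM in KD and at 36.9, 75, 55.6 and 37.8 TPM in RE. CON 4 lay below KD 2, so that CON and KD overlapped by these libraries, and every RE library lay below every control. The fall of Trib3 in KD was -1.28 ± 0.31 (adjusted p = 0.0199) and that in RE -2.08 ± 0.31 (adjusted p = 0.00135). Leaving out any 1 of CON 1 to CON 3, KD 1, KD 3 and KD 4 took the KD call of Trib3 past the threshold (adjusted p up to 0.0665).

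Chac1, an enzyme that degrades glutathione, and Sesn2, a leucine sensor that restrains mTORC1, passed the test in RE against CON and, with all libraries, not in KD against CON. Chac1 held 318, 238, 268 and 130 TPM in CON, 68.8, 174, 65.8 and 94 TPM in KD and 37.2, 98.4, 34.7 and 37.9 TPM in RE. KD 2 and RE 2 were the high libraries of their groups, and CON 4 lay below KD 2. The log2 fold change of Chac1 was -1.28 ± 0.40 in KD (adjusted p = 0.0634) and -2.25 ± 0.40 in RE (adjusted p = 0.00449). Without CON 4 the KD difference of Chac1 was -1.54 and passed (adjusted p = 0.0156), as it did without KD 2 or RE 2. Sesn2 was spread more widely in the controls, at 76.2, 66, 62.8 and 14.7 TPM, with 27.7, 39.7, 17.3 and 21.7 TPM in KD and 9.08, 25.5, 5.8 and 12.5 TPM in RE. CON 4 was below all 4 KD libraries. The KD difference of Sesn2 was -0.85 ± 0.52 (adjusted p = 0.371) and, without CON 4, -1.39 (adjusted p = 0.0271). Its RE difference of -1.93 ± 0.52 was at the threshold (adjusted p = 0.0477) and was lost in 10 of 12 fits that each left out a library (adjusted p up to 0.156). The RE call of Sesn2 was also lost with only the compared groups fitted. Whether the KD and RE differences of Chac1 and Sesn2 were themselves unequal is given by RE against KD, which passed for neither (adjusted p = 0.16 and 0.19).

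The remaining 3 stress factors were not lower in either comparison with all libraries. Ddit3, which encodes CHOP, the factor linking the stress response to cell death, was at 1000, 966, 948 and 822 TPM in CON, at 1195, 959, 771 and 1047 TPM in KD and at 714, 744, 1134 and 540 TPM in RE. All 3 groups overlapped, with RE 3 the highest RE library here although it was the lowest in most members. The log2 fold change of Ddit3 was 0.07 ± 0.20 in KD (adjusted p = 0.901) and -0.30 ± 0.20 in RE (adjusted p = 0.3). The RE value reached -0.50 without RE 3 (adjusted p = 0.146). Ddit3 was called lower in RE with array weights, without CON 4, RE 1 and RE 3 (-0.61, adjusted p = 0.0331) and without CON 4 and with the length correction (-0.75, adjusted p = 0.0204). Its 3′ end overlaps that of Mars on the opposite strand by 68 exonic bases, and the sources used here do not say whether strand was used in counting. Ddit4, an inhibitor of mTORC1, averaged 210 ± 43 TPM (SD, n = 4) in CON, 235 ± 21.8 TPM in KD and 267 ± 50.9 TPM in RE. Cebpb, a dimer partner of ATF4, averaged 119 ± 32.6 TPM in CON, 132 ± 12.9 TPM in KD and 184 ± 69.8 TPM in RE. Neither passed the test in a comparison with all libraries, and without CON 4 both were higher in RE than in CON (adjusted p = 0.022 for Ddit4 and 0.0196 for Cebpb).

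**Figure D2:**
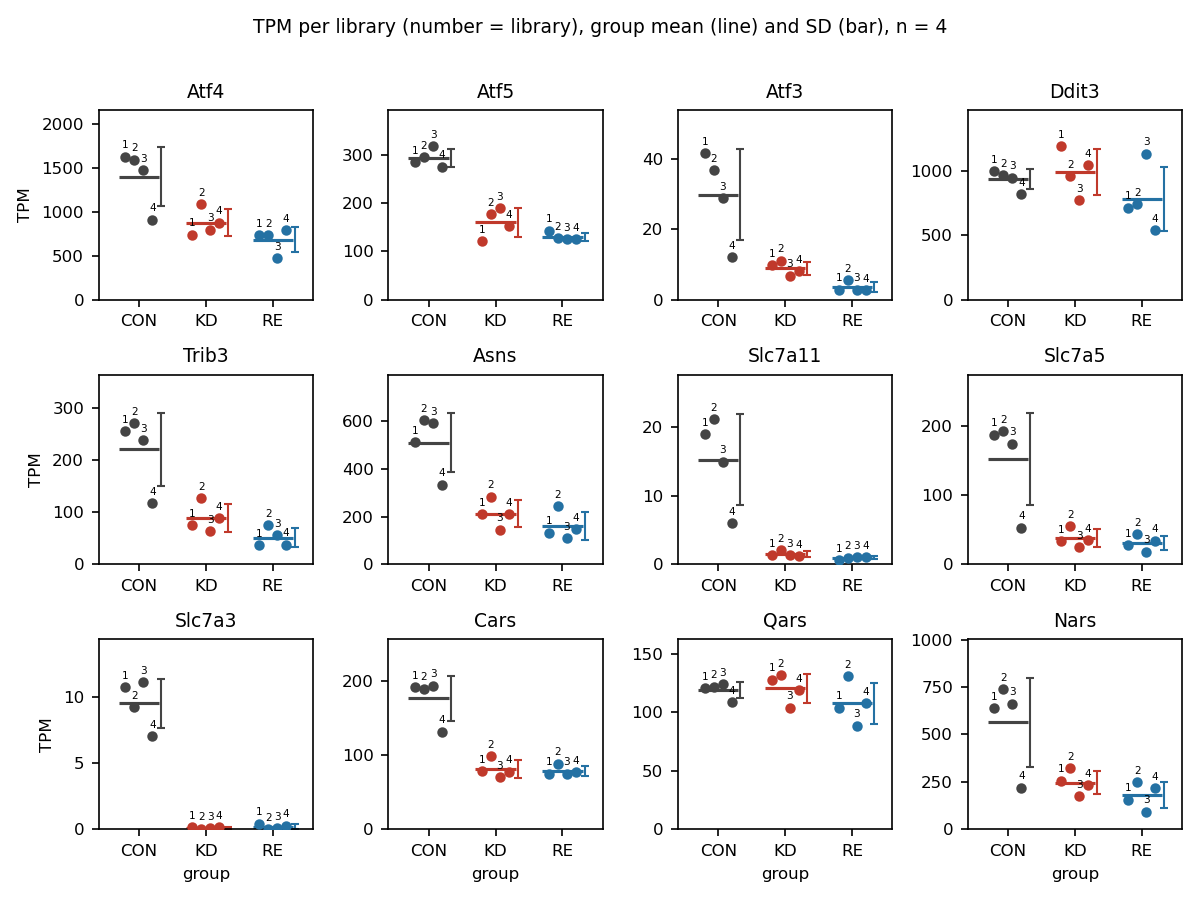
TPM of 12 members in each library (points, numbered by library), with the group mean (line) and SD (bar), n = 4 per group; each panel has its own linear axis starting at 0. CON 4 lies below the other controls in Atf4, Asns, Slc7a5 and Nars, whereas the groups of Ddit3 and Qars overlap.

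Of the 8 tested synthesis enzymes, 4 were lower in KD than in CON (Asns, Phgdh, Psph and Shmt2) and 6 in RE. Beside them, 3.61% of all tested genes were lower in KD and 3.63% in RE. Asns, which makes asparagine from aspartate and glutamine and is a textbook ATF4 target, had 511, 604, 591 and 333 TPM in CON, 211, 283, 145 and 210 TPM in KD and 132, 244, 111 and 148 TPM in RE. The controls did not overlap the other groups, and KD overlapped RE. Asns was lower by -1.26 ± 0.27 on the log2 scale in KD (adjusted p = 0.011) and by -1.70 ± 0.27 in RE (adjusted p = 0.00225).

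The serine pathway runs from Phgdh through Psat1 to Psph. Phgdh, its entry enzyme, was listed at 57.1, 59.5, 76.1 and 98.4 TPM in CON, at 19.7, 22.7, 18.7 and 25.7 TPM in KD and at 30.8, 23.5, 24.6 and 20.7 TPM in RE. With Ddit4 and Cebpb it was one of the members in which CON 4 was the highest control. The log2 fold changes of Phgdh were -1.68 ± 0.20 in KD (adjusted p = 0.000213) and -1.49 ± 0.20 in RE (adjusted p = 0.000598). Its level is uncertain because the genome holds near-identical copies such as Gm7901, which matches 84.4% of the transcript at 98.7% identity. Psph, the phosphatase that completes serine, was at 168, 205, 226 and 135 TPM in CON, at 74.3, 93.9, 61.5 and 72.8 TPM in KD and at 57.1, 95.1, 64.5 and 63.5 TPM in RE, with every control above every other library. It was lower in KD (-1.25 ± 0.21, adjusted p = 0.00198) and RE (-1.38 ± 0.21, adjusted p = 0.00135). Psph shares 452 exonic bases on the opposite strand with Cct6a, which averaged 364 TPM, so reads of the overlap could have been assigned to either. Psat1, the transaminase between them, averaged 835 ± 295 TPM in CON, 490 ± 134 TPM in KD and 378 ± 144 TPM in RE and passed neither test (adjusted p = 0.255 and 0.0878); without CON 4 both differences passed (-1.05, adjusted p = 0.0299, and -1.46, adjusted p = 0.00349).

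Shmt2 and Mthfd2 pass the serine carbon into folate in mitochondria. Shmt2 had 699, 747, 719 and 370 TPM in CON, 186, 268, 187 and 249 TPM in KD and 237, 259, 149 and 246 TPM in RE. Even CON 4, the lowest control, was above every KD and RE library. The falls of Shmt2 were of like size, -1.47 ± 0.25 in KD (adjusted p = 0.00236) and -1.48 ± 0.25 in RE (adjusted p = 0.00304). Mthfd2 was listed at 254, 259, 237 and 104 TPM in CON, at 101, 149, 72.8 and 109 TPM in KD and at 78.7, 120, 63 and 100 TPM in RE. CON 4 lay inside the ranges of KD and of RE. Its KD difference of -0.94 ± 0.31 did not pass (adjusted p = 0.0845; 0.00437 without CON 4), and its RE difference of -1.18 ± 0.31 passed narrowly (adjusted p = 0.0447) and was lost in 8 of the 12 single-library omissions. With only the compared groups fitted the RE call of Mthfd2 was lost as well.

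Cth, which makes cysteine from cystathionine, was at 140, 180, 150 and 43.3 TPM in CON, at 51.3, 78.4, 30.1 and 50.5 TPM in KD and at 17.4, 43.4, 16.1 and 22.6 TPM in RE. CON 4 fell among the KD libraries and level with RE 2. The difference was -1.17 ± 0.45 in KD (adjusted p = 0.129; 0.00679 without CON 4) and -2.25 ± 0.45 in RE (adjusted p = 0.00958). Cbs, which acts one step before Cth, did not exceed 0.317 TPM in any library and was not tested. Pycr1, the last enzyme of proline synthesis, was low, at 5.65 ± 1.76 TPM in CON, 8.38 ± 1.29 TPM in KD and 3.99 ± 1.78 TPM in RE, and passed no test (adjusted p = 0.266 for KD against CON and 0.0933 for RE against KD).

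The transporters held the members with the greatest fitted falls. In KD 4 of 7 were lower and in RE 6 of 7, beside 3.61% and 3.63% of all tested genes. Slc7a3, a cationic amino acid transporter (CAT3), was listed at 10.7, 9.2, 11.1 and 7 TPM in CON. It was nearly absent elsewhere, at 0.121, 0.0385, 0.0591 and 0.148 TPM in KD and at 0.405, 0, 0.0526 and 0.267 TPM in RE. The log2 fold change of Slc7a3, understated by the pseudocount of 1, was -3.25 ± 0.18 in KD (adjusted p = 4.56e-07) and -3.15 ± 0.18 in RE (adjusted p = 4.96e-07). Slc7a3 averaged 9.51 TPM in CON, 0.0915 TPM in KD and 0.181 TPM in RE. It reached the filter of 1 TPM only through CON, so its calls are a description only. Slc7a11, the cystine importer xCT that supplies cysteine for glutathione, had 19, 21.2, 15 and 6.02 TPM in CON, 1.3, 2.11, 1.37 and 1.18 TPM in KD and 0.611, 0.955, 1.08 and 1.09 TPM in RE. No control came near the other 2 groups, although CON 4 was the lowest of them. Its falls were -2.60 ± 0.31 in KD (adjusted p = 0.000228) and -2.96 ± 0.31 in RE (adjusted p = 9.88e-05), and both held whichever single library was left out.

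Slc7a5 (LAT1) exchanges glutamine for leucine and other large neutral amino acids. It was at 188, 193, 175 and 53.1 TPM in CON, at 33.9, 55.7, 24.9 and 35.5 TPM in KD and at 28.2, 43.5, 18.2 and 34.4 TPM in RE. CON 4 was just below KD 2 and above the other KD and RE libraries. Slc7a5 was lower by -1.89 ± 0.41 in KD (adjusted p = 0.011) and by -2.16 ± 0.41 in RE (adjusted p = 0.00727); without CON 4 the values were -2.33 and -2.60. Slc3a2, the glycoprotein that carries both LAT1 and xCT to the membrane, was at 284, 284, 281 and 218 TPM in CON, at 228, 228, 200 and 212 TPM in KD and at 157, 170, 178 and 153 TPM in RE. All RE libraries lay below all KD and all CON libraries, and CON 4 lay inside the KD range. Its differences were small beside those of its light chains, -0.29 ± 0.12 in KD (adjusted p = 0.16) and -0.69 ± 0.12 in RE (adjusted p = 0.00386). Without CON 4 the KD difference of Slc3a2 was -0.38 and passed (adjusted p = 0.0283), and the RE call was lost under median-of-ratios scaling.

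Slc1a5 (ASCT2) and Slc1a4 (ASCT1) exchange serine, alanine and other small neutral amino acids. Slc1a5 was listed at 71.3, 71.4, 73.9 and 35.6 TPM in CON, at 16.4, 22.6, 18.4 and 19.9 TPM in KD and at 23.5, 19.3, 12.6 and 26 TPM in RE, without overlap of CON with either group. It was lower in KD (-1.61 ± 0.27, adjusted p = 0.00229) and in RE (-1.57 ± 0.27, adjusted p = 0.00356). Slc1a4 was at 114, 96.6, 91.9 and 37.2 TPM in CON, at 37.1, 51.7, 32.9 and 35.3 TPM in KD and at 26.5, 37.7, 17.1 and 34.9 TPM in RE. CON 4 was level with KD 1, the other controls were above all other libraries, and the RE difference passed (-1.46 ± 0.34, adjusted p = 0.0224, lost in 5 of the 12 single-library omissions). It was also lost with only the compared groups fitted. The KD difference of Slc1a4 was -1.0 ± 0.34 (adjusted p = 0.0856) with all libraries and -1.35 (adjusted p = 0.0031) without CON 4. Slc7a1 (CAT1), the widely used arginine and lysine importer, was at 103, 98.2, 73.3 and 11.9 TPM in CON, a spread that left its differences of -1.28 ± 0.62 in KD (adjusted p = 0.242) and -2.14 ± 0.62 in RE (adjusted p = 0.065) short of the threshold. Without CON 4 they were -1.98 (adjusted p = 0.00605) and -2.85 (adjusted p = 0.000546).

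**Figure D3:**
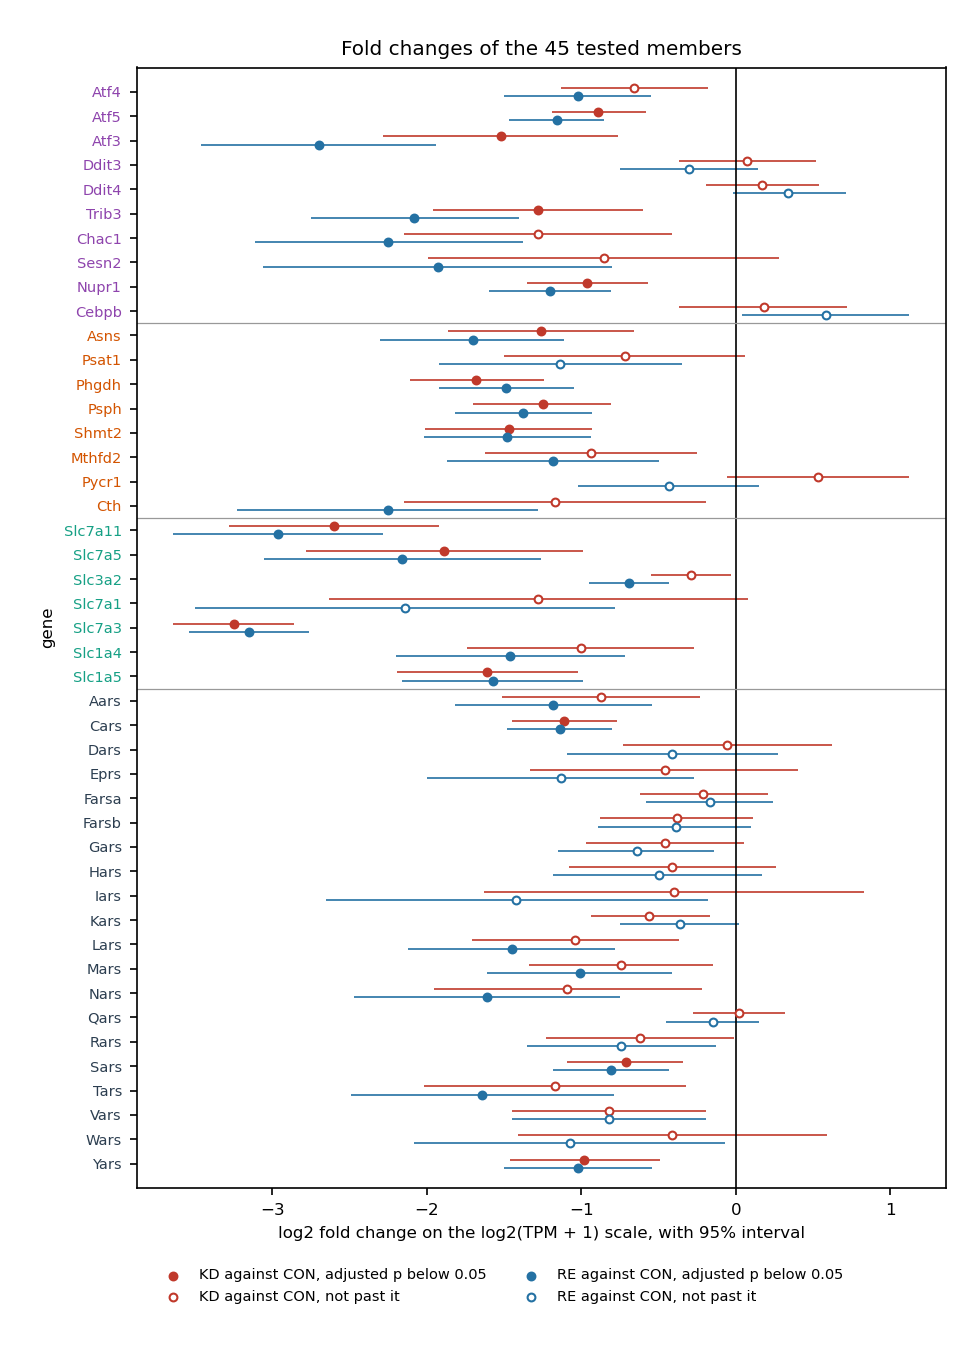
Log2 fold changes on the log2(TPM + 1) scale (horizontal axis) with 95% intervals from limma for the 45 tested members (rows, label colour by role), KD against CON in red and RE against CON in blue; filled points have an adjusted p below 0.05. The transporters Slc7a3 and Slc7a11 lie farthest to the left, and the intervals of Ddit3, Qars and Farsa span 0 in both comparisons.

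Synthetases attach each amino acid to its tRNA, and their cytosolic forms serve the main protein synthesis of the cell. Of the 20, 3 were lower in KD (Cars, Sars and Yars) and 8 in RE, beside 3.61% and 3.63% of all tested genes. Their median log2 fold change was -0.59 in KD and -0.91 in RE. Their summed level was 5509, 5918, 5509 and 2551 TPM in CON, 2853, 3422, 2333 and 2902 TPM in KD and 2326, 2991, 1690 and 2857 TPM in RE. CON 4 thus carried less than KD 1, KD 2 and KD 4, whereas CON 1 to CON 3 were above all 8 KD and RE libraries.

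Cars, for cysteine, was at 192, 190, 194 and 132 TPM in CON, 78, 98.9, 70.2 and 77.6 TPM in KD and 75, 88.7, 74.9 and 77 TPM in RE. Every control was above every other library, and KD and RE overlapped. It was lower by -1.11 ± 0.16 in KD (adjusted p = 0.000734) and by -1.14 ± 0.16 in RE (adjusted p = 0.000711). Yars, for tyrosine, was at 157, 183, 172 and 91.2 TPM in CON, at 71.3, 91.1, 59.6 and 76.1 TPM in KD and at 72.3, 85.3, 57.6 and 73 TPM in RE, so that CON 4 and KD 2 were level. The falls of Yars were -0.98 ± 0.22 (adjusted p = 0.014) and -1.02 ± 0.22 (adjusted p = 0.0155). Sars, for serine, was at 318, 374, 388 and 257 TPM in CON, at 200, 235, 160 and 216 TPM in KD and at 168, 236, 182 and 174 TPM in RE, without overlap of CON with either group. Its differences were -0.71 ± 0.17 in KD (adjusted p = 0.0192) and -0.81 ± 0.17 in RE (adjusted p = 0.014). The KD calls of Sars and Yars were lost without CON 2 or CON 3 (adjusted p up to 0.0684 and 0.0523), and that of Sars also without KD 1. The RE call of Sars was lost without CON 2 or CON 3 (adjusted p up to 0.059), under median-of-ratios scaling and with the length correction. That of Yars was lost when 1 of CON 1 to CON 3 was left out (adjusted p up to 0.0628) and with only the compared groups fitted.

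A further 5 synthetases passed the test in RE against CON and, with all libraries, not in KD against CON, and in each of them CON 4 was well below the other controls. Nars, for asparagine, was at 640, 738, 662 and 218 TPM in CON, at 255, 321, 174 and 233 TPM in KD and at 156, 249, 92.4 and 217 TPM in RE. Tars, for threonine, was at 710, 753, 637 and 214 TPM in CON, at 227, 303, 187 and 222 TPM in KD and at 163, 227, 92.2 and 222 TPM in RE. In both, CON 4 lay inside the ranges of KD and of RE. The RE difference was -1.61 ± 0.40 for Nars (adjusted p = 0.0308) and -1.64 ± 0.39 for Tars (adjusted p = 0.0257). In KD the difference was -1.09 ± 0.40 for Nars (adjusted p = 0.111; -1.49 and 0.00472 without CON 4). For Tars it was -1.17 ± 0.39 (adjusted p = 0.0838; -1.59 and 0.00198 without CON 4).

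Lars, for leucine, was at 219, 261, 233 and 87.5 TPM in CON, at 92.4, 112, 67.9 and 91.3 TPM in KD and at 62, 86.1, 52.7 and 71.5 TPM in RE. CON 4 lay inside the KD range and just above RE 2. Its KD difference of -1.04 ± 0.31 fell just short of the threshold (adjusted p = 0.0517; -1.40 and 0.000475 without CON 4), and its RE difference was -1.45 ± 0.31 (adjusted p = 0.0136). Aars, for alanine, was at 404, 433, 415 and 169 TPM in CON, at 174, 229, 151 and 183 TPM in KD and at 145, 177, 100 and 180 TPM in RE. Mars, for methionine, was at 270, 272, 273 and 135 TPM in CON, at 140, 179, 98.4 and 138 TPM in KD and at 106, 149, 77.5 and 132 TPM in RE. In Aars and Mars CON 1 to CON 3 differed by little, and CON 4 was among the KD and RE values. The RE differences were -1.18 ± 0.29 for Aars (adjusted p = 0.0329) and -1.01 ± 0.27 for Mars (adjusted p = 0.0487). The KD differences were -0.87 ± 0.29 for Aars (adjusted p = 0.0869; -1.19 and 0.00175 without CON 4) and -0.74 ± 0.27 for Mars (adjusted p = 0.115; -1.0 and 0.0104 without CON 4). All 5 were called lower in KD without CON 4, with the length correction and under median-of-ratios scaling. Each of these 5 RE calls was lost in some of the 12 single-library omissions, 3 for Lars, 5 for Nars and for Tars, 7 for Aars and 9 for Mars. All 5 were also lost with only the compared groups fitted.

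The other 12 synthetases, Dars, Eprs, Farsa, Farsb, Gars, Hars, Iars, Kars, Qars, Rars, Vars and Wars, passed neither test with all libraries. Without CON 4, Eprs, Farsb, Gars, Kars, Rars and Vars were lower in KD. Qars, for glutamine, was at similar levels in the groups, 119 ± 6.81 TPM in CON, 121 ± 12.4 TPM in KD and 108 ± 17.6 TPM in RE, with log2 fold changes of 0.02 ± 0.14 and -0.15 ± 0.14. Iars, for isoleucine, ranged within the controls from 32.1 TPM in CON 4 to 191 TPM in CON 2. Farsa and Farsb, the subunits of the phenylalanine enzyme, differed by -0.21 and -0.38 in KD, with adjusted p = 0.596 and 0.355. Eprs joins the glutamate and proline activities in 1 protein and averaged 272 ± 121 TPM in CON and 181 ± 50.4 TPM in KD.

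Leaving out CON 4 changed the count of members lower in KD more than leaving out any other single library. The count rose from 15 to 35 of 45, made up of all 15 and 20 more, while the share of all tested genes called lower rose from 3.61% to 11.0%. By role, 7 of 10 stress factors, 7 of 8 synthesis enzymes, 7 of 7 transporters and 14 of 20 synthetases were then lower. The 10 that were not were Ddit3, Ddit4, Cebpb, Pycr1, Dars, Farsa, Hars, Iars, Qars and Wars. In RE against CON the count rose from 27 to 39, but 42.0% of all genes were then called lower. With a smooth trend on transcript length removed from every library, 28 members were lower in KD (9.64% of genes) and 29 in RE (5.72%). Scaling by the median of ratios, which set the median of all genes at 0.01 in RE against CON where it had been -0.27, gave 29 members lower in KD (5.79%) and 26 in RE (4.25%).

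**Figure D4:**
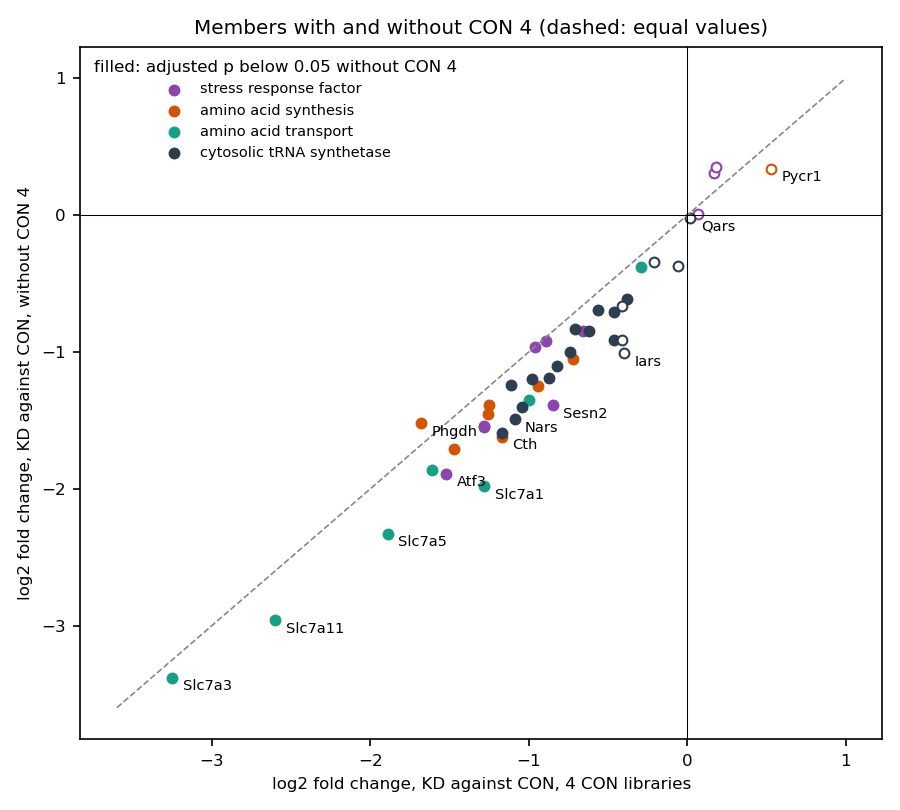
Log2 fold change of KD against CON for the 45 tested members with all 4 CON libraries (horizontal axis) and without CON 4 (vertical axis), coloured by role; filled points have an adjusted p below 0.05 without CON 4 and the dashed line marks equal values. Nearly all members lie below the line, with Slc7a1 and Sesn2 among those moving farthest and Phgdh above it.

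Between RE and KD no member passed the test at an adjusted p below 0.05. The fitted difference was negative in 37 of the 45 tested members, beside 8471 of the 11774 tested genes. The fitted differences ran from -1.18 for Atf3 to 0.40 for Cebpb. For the members with the greatest falls in KD the 95% intervals of the RE against KD difference were -0.29 to 0.49 for Slc7a3 and -1.04 to 0.32 for Slc7a11. Slc7a3 averaged 0.0915 TPM in KD and 0.181 TPM in RE, and Slc7a11 1.49 and 0.934 TPM. The pseudocount of 1 compresses differences at such levels, so these intervals do not bound the ratio of RE to KD. The median difference of the synthetases was -0.18, beside -0.29 for all tested genes, and under median-of-ratios scaling it was 0.15, so its direction depended on the scaling. Within the groups, KD 2 was the highest KD library in 35 of the 45 tested members and KD 3 the lowest in 32. RE 2 was the highest RE library in 27. Such counts were not made over all tested genes, so they do not set the members apart. The libraries also differed over the whole table. Their median-of-ratios factors were 1.17, 1.16, 0.983 and 1.05 in KD 1 to KD 4 and 0.819, 1, 0.668 and 1.03 in RE 1 to RE 4.

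Neighbouring genes were taken from lists of the same pathways. Of all tested genes, 6.60% were called higher and 3.61% lower in KD, and 2.70% and 3.63% in RE. The kinases, phosphatase subunits and exchange factor of eIF2 alpha gave 1 higher and 2 lower of 18 in KD against CON, with a median log2 fold change of -0.10. Eif2ak3, the kinase PERK of the endoplasmic reticulum, was at 9.35, 8.08, 10.8 and 4.63 TPM in CON, at 27.4, 20.4, 15.4 and 18.1 TPM in KD and at 7.03, 16.3, 7.15 and 11.5 TPM in RE. It was the higher gene (1.23 ± 0.31, adjusted p = 0.0227), and all KD libraries were above all CON libraries. The KD call of Eif2ak3 was lost when CON 2, KD 1, KD 2 or KD 4 was left out (adjusted p up to 0.084). Eif2s2 (-0.73 ± 0.15, adjusted p = 0.00795) and Eif2b3 (-0.55 ± 0.15, adjusted p = 0.0336), subunits of eIF2 and of its exchange factor, were the lower ones. The call of Eif2b3 was lost in 6 of the 12 single-library omissions (adjusted p up to 0.106), and that of Eif2s2 under median-of-ratios scaling and with the length correction. In RE against CON 1 gene of this list was lower, Ppp1r15a, the stress-induced phosphatase subunit GADD34 (-1.61 ± 0.33, adjusted p = 0.0106).

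Of 19 other ATF4 or CHOP targets, 2 were lower in KD and 8 in RE, and 0 were higher in either. The shares of all tested genes called lower were 3.61% in KD and 3.63% in RE. Vldlr, a lipoprotein receptor, was at 10.2, 10.5, 10.4 and 5.23 TPM in CON and at no more than 0.173 TPM in any KD or RE library (log2 fold change -3.17 ± 0.20, adjusted p = 1.08e-06 in KD). Like Slc7a3, Vldlr reached the filter of 1 TPM only through CON. Eif4ebp1, the inhibitor of cap-dependent translation 4E-BP1, was lower in KD by -0.95 ± 0.14 (adjusted p = 0.00119) and, unlike most members, had CON 4 as its highest control. Gpt2, the mitochondrial alanine transaminase, and Fgf21, a stress-induced hormone, were lower in RE by -2.40 ± 0.47 (adjusted p = 0.00827) and -2.18 ± 0.43 (adjusted p = 0.00858). Among 18 other genes of serine, one-carbon and proline metabolism, 3 were lower in KD (Shmt1, Ahcy and Pycrl) and 0 higher. Over all tested genes the shares in KD were 3.61% lower and 6.60% higher. The KD calls of Shmt1 and Pycrl were each lost in 7 of the 12 single-library omissions (adjusted p up to 0.108 and 0.109). That of Ahcy was lost in 3 and under median-of-ratios scaling and quantile normalization. Ahcy, which clears S-adenosylhomocysteine, was also 1 of only 2 genes of these lists that passed in RE against KD, at 0.99 ± 0.19 higher (adjusted p = 0.0376). Glul, which makes glutamine, was the other, at -0.76 ± 0.15 (adjusted p = 0.0369). Both RE against KD calls were lost in 9 of the 12 single-library omissions, with adjusted p up to 0.165 for Ahcy and 0.158 for Glul. They were also lost under median-of-ratios scaling, under quantile normalization, with only the compared groups, and without CON 4, RE 1 and RE 3.

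Transporters outside the members gave 3 higher and 0 lower of 13 tested genes in KD, beside 6.60% and 3.61% of all genes. Their counts in RE were 1 higher and 1 lower, beside 2.70% and 3.63% of all genes. The median log2 fold change of the list was 0.26 in KD and -0.66 in RE. Slc7a2 (CAT2), a cationic transporter of the same family as Slc7a3, was at 3.37, 4.07, 3.53 and 1.74 TPM in CON, at 31.7, 31, 17.6 and 19.8 TPM in KD and at 6.67, 14.3, 6.61 and 11.8 TPM in RE. The 3 groups did not overlap, with KD highest, and its log2 fold change was 2.63 ± 0.30 in KD (adjusted p = 0.000158) and 1.34 ± 0.30 in RE (adjusted p = 0.0191). The RE call of Slc7a2 was lost without CON 1, CON 3, RE 2 or RE 4 (adjusted p up to 0.057) and with only the compared groups. Slc1a3, a glutamate transporter, and Slc43a1, a leucine transporter, were higher in KD by 2.26 ± 0.37 (adjusted p = 0.00179) and 0.90 ± 0.20 (adjusted p = 0.0114). The KD call of Slc43a1 was lost under median-of-ratios scaling, under quantile normalization and with the length correction. Slc6a9 was the gene of this list lower in RE (-1.78 ± 0.32, adjusted p = 0.00539), whichever single library was left out. Its KD difference of -1.02 ± 0.32 did not pass (adjusted p = 0.0678, and 0.00797 without CON 4). Within the cationic transporters, then, Slc7a3 was lower and Slc7a2 higher in KD. Slc7a1, which averaged 71.6 TPM in CON, differed by -1.28 in KD and was not called (adjusted p = 0.242). Without CON 4 the KD difference of Slc7a1 was -1.98 (adjusted p = 0.00605).

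Mitochondrial synthetases with genes of their own gave 0 higher and 0 lower of 17 in each comparison, with medians of -0.21 in KD and -0.29 in RE. Of all tested genes, 6.60% were higher and 3.61% lower in KD, and 2.70% and 3.63% in RE. At such shares, 0 calls among 17 genes do not set this list apart. Without CON 4, 2 of the 17 were lower in KD, beside 11.0% of all genes. The 3 scaffold genes of the multisynthetase complex (Aimp1, Aimp2 and Eef1e1) likewise gave 0 calls, and their medians were -0.35 and -0.06.

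Chaperones and other unfolded protein response genes of the endoplasmic reticulum differed in the opposite direction. Of 22 tested, 13 were higher and 0 lower in KD against CON, and 9 were higher and 0 lower in RE. Beside them, 6.60% of all tested genes were higher in KD and 2.70% in RE. Hspa5, the chaperone BiP, was at 1375, 1423, 1355 and 1745 TPM in CON, at 6621, 4722, 3421 and 5524 TPM in KD and at 2297, 4561, 3480 and 2792 TPM in RE. Every KD and RE library was above every control, CON 4 included. It was higher by 1.75 ± 0.23 in KD (adjusted p = 0.00048) and by 1.11 ± 0.23 in RE (adjusted p = 0.0124). Pdia4, a disulfide isomerase, was higher by 1.96 ± 0.26 in KD (adjusted p = 0.000494), and Sdf2l1, which works with BiP, by 2.40 ± 0.46 (adjusted p = 0.00519). In Sdf2l1 CON 4 stood apart upward, at 195 TPM beside 37.1 to 50 TPM in the other controls. The list's count in KD was 13 without CON 4 as well (1116 of all 11774 genes higher), and 17 with the length correction (1371 of 11339). All 4 KD libraries, in which Hspa5 exceeded every control, had Atf4, Asns and Trib3 below the levels of CON 1 to CON 3. Against CON 4 this held for Asns alone, as KD 2 exceeded it in Atf4 (1093 against 911 TPM) and Trib3 (127 against 118 TPM). Ddit3 was not called in KD (0.07, adjusted p = 0.901).

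**Figure D5:**
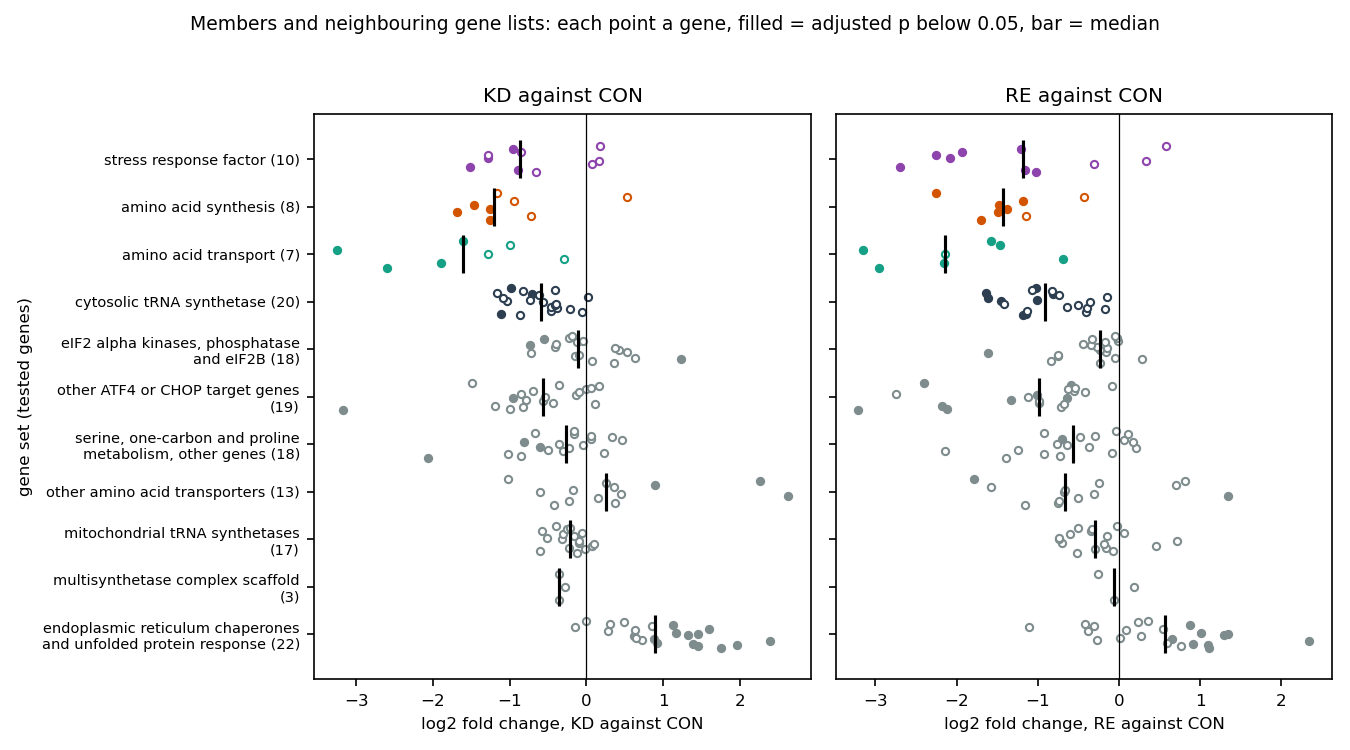
Log2 fold changes of the 4 member roles (coloured) and of 7 neighbouring gene lists (grey), KD against CON on the left and RE against CON on the right; each point is a gene, filled where its adjusted p is below 0.05, the bar is the median and the number in brackets counts tested genes. Transporters have the lowest medians (-1.61 and -2.14) and the endoplasmic reticulum list the highest (0.90 and 0.57).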

How the data were processed

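RNA from 12 HL-1 libraries (4 per group) was sequenced, and the authors deposited 1 table of TPM values for 23184 gene symbols. Per the submitters' processing notes, Trim Galore 0.6.6, TopHat2 2.1.1, Cufflinks 2.2.1 and the mm10 build were used; the sources used here do not give the steps from these tools to TPM or any use of strand. Each deposited TPM column sums to 1000000, so sequencing depth is unknown and no counting interval is given; an exact 0 is reported as listed at 0. No pair of libraries was identical (smallest Spearman correlation 0.821). The labels do not state separate cultures for the libraries of a group; the p-values therefore reflect the spread among these samples alone, and that spread may be technical.

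The members, their roles, the neighbouring lists and the markers were chosen with earlier results of these data known. Genes with a mean of at least 1 TPM (11774, of which 45 members) were put on the log2(TPM + 1) scale, which understates changes of low genes, and fitted in limma 3.58.1 (R 4.3.3) with a mean per group over all 12 libraries and a mean-variance trend, two-sided. P-values were adjusted with the Benjamini-Hochberg method over all 11774 genes for each comparison, and every adjusted p comes from this limma test. The procedure was tested on simulated data. Values in every library are given for members called in a comparison and for Atf4, Ddit3 and Asns; from each neighbouring list up to 3 called genes per comparison with the greatest change were eligible for naming. Gene positions, exon overlaps and near-identical copies came from GENCODE annotation of GRCm38, and promoter sequences from the RefSeq table of GRCm38.p6. Alternatives tried were quantile normalization, median-of-ratios scaling, a pseudocount of 0.1, a TPM filter of 5 or none, only the compared groups, robust moderation, array weights, an additional log2 fold change of 1, a loess length correction (span 0.5), a replicate block, each library left out, and CON 4, RE 1 and RE 3 left out together; leaving out CON 4 with the length correction was added after seeing the data.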

Additional observations from a re-analysis of the deposited data

Results flagged for a closer look

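The 3 groups of each of the 28 members whose values are given by library made 84 groups of 4 libraries. In them, 18 values stood apart from the other 3 of their group by a gap above Dixon's 95% critical share of the range. For independent groups chance alone gives about 1 in 20. These groups are not independent, because the genes share the same 12 libraries, so the count of 18 is not set against that rate. CON 4 gave 13 of the 18 values, each time as the low value. Trib3 was at 118 TPM in CON 4 beside 238 to 271 TPM in the other controls, and Sesn2 at 14.7 TPM beside 62.8 to 76.2 TPM. In the folate enzymes, CON 4 had 370 TPM of Shmt2 (others 699 to 747 TPM) and 104 TPM of Mthfd2 (others 237 to 259 TPM). Of the transporters, CON 4 had 53.1 TPM of Slc7a5 (others 175 to 193 TPM), 218 TPM of Slc3a2 (others 281 to 284 TPM) and 35.6 TPM of Slc1a5 (others 71.3 to 73.9 TPM). The synthetases Aars (169 TPM, others 404 to 433 TPM), Cars (132 TPM, others 190 to 194 TPM) and Lars (87.5 TPM, others 219 to 261 TPM) were low there as well. So were Mars (135 TPM, others 270 to 273 TPM), Nars (218 TPM, others 640 to 738 TPM) and Tars (214 TPM, others 637 to 753 TPM).

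Low values in RE 3 were those of Atf4 (477 TPM, others 735 to 792 TPM) and Shmt2 (149 TPM, others 237 to 259 TPM). High values in RE 2 were those of Atf3 (5.59 TPM, others 2.7 to 2.85 TPM), Chac1 (98.4 TPM, others 34.7 to 37.9 TPM) and Cars (88.7 TPM, others 74.9 to 77 TPM). No value in a KD library was flagged. CON 4 and RE 3 are also the libraries with the lowest long-transcript medians (-0.82 and -0.99); the part of that difference in these values was not tested.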

How the results depend on the processing

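No member changed direction in a called comparison under any alternative run. Beside each count of members stands, in brackets, that of all 11774 tested genes called in the same direction, or of 11339 where length was corrected. The 15 members lower in KD against CON (425) became 29 with median-of-ratios scaling (682), 25 with quantile normalization (837), 40 with array weights (3822), 28 with the length correction (1093), 40 without CON 4, RE 1 and RE 3 (2960), and 36 without CON 4 and with the length correction (1800). Leaving out 1 library gave 11 without CON 2 (257) to 35 without CON 4 (1296). For RE against KD, 0 lower (101) became 14 with array weights (3941), 3 without CON 4 and with the length correction (677), and 0 to 6 when 1 library was left out, with 6 without CON 4 (2338) and 1 without RE 2 (405). The 27 lower in RE against CON (427) became 17 with only the compared groups (256) and 41 with array weights (4944). With 1 library left out they were 16 without CON 2 (262) or CON 3 (256) to 39 without CON 4 (4946). Members higher were 0 except with array weights, where 2 were higher in KD against CON (2611), 1 in RE against KD (1364) and 2 in RE against CON (1442). In RE against CON, 2 were also higher without CON 4 (1273), 1 without CON 4, RE 1 and RE 3 (957) and 1 without CON 4 and with the length correction (2334), and with 1 library left out the range was 0 to 2. The cause of these shifts was not tested. The pseudocount, TPM filters, robust moderation and the added log2 fold change of 1 kept each count over all members within 1.5 times. By role, the added fold change took the stress factors lower in KD from 4 to 2 and the synthetases from 3 to 1 (243). Same-numbered KD and RE libraries were not shown to be paired: their deviations correlated at -0.55, 0.65, 0.24 and -0.25. With the number as a replicate block, 10 members (1762) were lower in RE against KD. TPM holds no depth, so what counting error adds for low genes such as Slc7a3 is unknown.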
